A study of Homo sapiens with 3 samples.

Results

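The subject here is 9 genes that belong to, or hold back, transforming growth factor β (TGF-β) and bone morphogenetic protein (BMP) signaling in HCT-116 cells: the decoy receptor gene *BAMBI*, the inhibitory SMAD genes *SMAD6* and *SMAD7*, the inhibitor of DNA binding genes *ID1*, *ID2* and *ID3*, the ligand genes *BMP4* and *TGFB1*, and the receptor gene *TGFBR2*. They were taken by symbol from a table of 23131 genes, where all 9 are listed, each alone at its locus. The 9 were chosen by name with their FPKM in these 2 libraries already known, so their differences are described without a test. With anti-*APC* siRNA, *BAMBI* was 3.57-fold and *BMP4* 2.03-fold higher than in untransfected cells, whereas *ID1* was at 0.467 and *ID3* at 0.626 of the untransfected level. *ID2*, *TGFB1*, *SMAD7* and *TGFBR2* differed by less than 1.5-fold.

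TGF-β and BMP ligands bind pairs of type I and type II receptor kinases, which phosphorylate receptor SMADs that enter the nucleus with SMAD4. The pathway limits itself: active SMADs raise the transcription of *SMAD6*, *SMAD7* and *BAMBI*, whose products block receptors or SMADs. The ID proteins are classic BMP targets that bind E proteins and keep them off DNA. In the colon, BMP signaling is highest toward the crypt surface and opposes WNT signaling, which is strongest at the crypt base, and *BAMBI*, *BMP4* and *ID2* have each been described as targets of β-catenin in colorectal cancer cells.

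HCT-116 is an established colon carcinoma line, labelled as wild-type for APC and with a β-catenin that lacks a serine needed for its degradation, in all samples alike. It is also known for mutated *TGFBR2*. One library was made of cells given a pool of siRNA against *APC*, 1 of cells given pooled scrambled siRNA and 1 of cells given no siRNA, which the labels call both untransfected and mock (reagent only). Transfections were done 2 times on consecutive days and cells were harvested 48 hours after the second. The comparison here is anti-*APC* siRNA against untransfected cells, 1 library each. The library with scrambled siRNA was not used here. Effects of siRNA delivery and of *APC* silencing therefore cannot be told apart. *APC* itself had 3.43 FPKM against 9.15 FPKM in the untransfected library, which goes with the labels.

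Values are FPKM, fragments scaled to transcript length and to the number of mapped reads, and each ratio is anti-*APC* siRNA over untransfected. A difference is called at 1.5-fold, for genes with a mean of at least 1 FPKM over the 2 libraries and a value above 0 in both. Of the 12063 such genes, 2.56% were at least 1.5-fold higher and 6.61% at least 1.5-fold lower, and the median log2 ratio was -0.05. The step in FPKM made by 1 read places the depth near 27600000 reads for the untransfected and 25200000 reads for the anti-*APC* library. Each interval below is a 95% exact (Clopper-Pearson) interval from the estimated reads. It covers counting error only, so the spread between cultures is unknown. Of 6 epithelial markers, *EPCAM*, *KRT8*, *KRT18*, *KRT19* and *CDH1* had at least 1 FPKM, with *VIL1* at 0.0313 FPKM with anti-*APC* siRNA and listed at 0 without. All 5 had lower values with anti-*APC* siRNA, of which *CDH1*, at 12.1 against 19.0 FPKM, was past 1.5-fold. None of 4 endothelial markers reached 1 FPKM, nor did the fibroblast markers apart from *COL1A1* (3.08 and 2.85 FPKM) or the leukocyte markers apart from *CD68* (5.01 and 8.91 FPKM with and without anti-*APC* siRNA). The summed level of the 6 epithelial markers was 1287 FPKM with and 1642 FPKM without anti-*APC* siRNA, and its part in the results was not tested. In RNA from a whole culture, fewer cells of a kind and less RNA per cell cannot be told apart.

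Of the 9 genes, 8 reached a mean of 1 FPKM. Of these, 2 were called higher (*BAMBI* and *BMP4*), where the share of all genes is 2.56%, and 2 were called lower (*ID1* and *ID3*), where it is 6.61%. At 2-fold, *BAMBI* and *BMP4* were higher (0.953% of all genes) and *ID1* was lower (1.37% of all genes). The genes were chosen on this comparison, so nothing is read from these shares. The exception is *SMAD6*, with a mean of 0.701 FPKM. The median log2 ratio of the 8 was -0.20, beside -0.05 over all genes, and 3 of the 9 ratios were above 0.

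**Figure D1:**
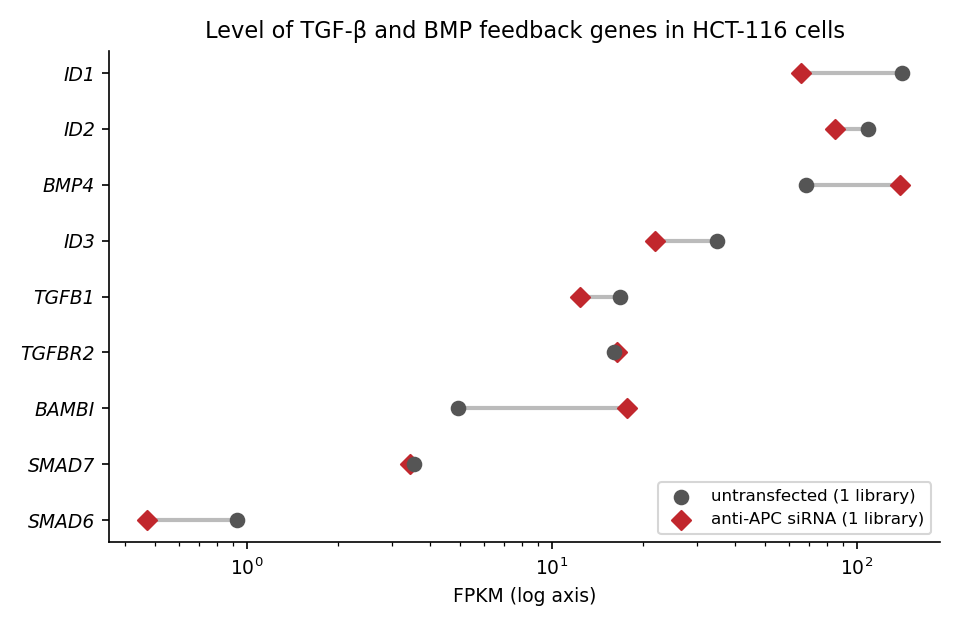
Level of each of the 9 genes in FPKM (log axis) in the untransfected library (grey circles) and the anti-*APC* siRNA library (red diamonds), 1 library each, ordered by the untransfected level. *BAMBI* and *BMP4* lie to the right in the anti-*APC* library, *ID1*, *ID2*, *ID3*, *TGFB1* and *SMAD6* lie to the left, and the 2 points of *SMAD7* and of *TGFBR2* nearly coincide.

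*BAMBI* encodes a membrane protein that resembles a type I receptor but lacks the kinase domain, and so pairs with receptors without passing the signal on. It had 4.95 FPKM in untransfected cells and 17.7 FPKM with anti-*APC* siRNA, which correspond to about 203 and 662 reads. The log2 ratio was 1.83 (counting interval 1.61 to 2.07), or 3.57-fold. Of the 12063 genes, 19 had a larger ratio. Among the 4490 genes with a mean of 5 to 20 FPKM, as for *BAMBI*, 0.557% were at least 2-fold higher. In order of level among the 9 genes, *BAMBI* went from the seventh to the fifth. Its level relative to other genes of the same library moved as much. *BAMBI* was at 30.9% of the FPKM of *TGFBR2* in untransfected cells and at 108% with anti-*APC* siRNA, and the same share of the summed FPKM of the 7 type I receptor genes was 12.1% and 45.3%.

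*BMP4*, the ligand that signals through BMP receptors to SMAD1, SMAD5 and SMAD9, rose from 68.5 to 139 FPKM. The estimated reads were 3268 and 6068. The log2 ratio was 1.02 (counting interval 0.96 to 1.09), or 2.03-fold, and 108 of the 12063 genes had a larger one. *BMP4* became the most abundant of the 9 genes, having been the third. It made up 90.2% of the summed FPKM of 17 BMP and GDF ligand genes in untransfected cells and 96.1% with anti-*APC* siRNA. The next of these ligands, *BMP7*, had 2.35 and 1.84 FPKM (log2 ratio -0.35).

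The promoters of *BAMBI* and *BMP4* are shown because these are the 2 genes that rose. Each window runs from 250 bases before to 50 bases after a start site (RefSeq, GRCh38.p14), is 300 bases long, and is printed in the direction of transcription. Capitals mark matches, on either strand, to GGCGCC, a GC-rich element known from BMP-responsive genes, to the TCF/LEF word ATCAAAG or its variants that begin with AA, TT or TA in place of AT, or to GTCTAGAC, the palindromic SMAD-binding element. The *BAMBI* window is chr10:28677271-28677570 on the plus strand, and the *BMP4* window is that of the first of 3 listed start sites, chr14:53955001-53955300 on the minus strand.
BAMBI: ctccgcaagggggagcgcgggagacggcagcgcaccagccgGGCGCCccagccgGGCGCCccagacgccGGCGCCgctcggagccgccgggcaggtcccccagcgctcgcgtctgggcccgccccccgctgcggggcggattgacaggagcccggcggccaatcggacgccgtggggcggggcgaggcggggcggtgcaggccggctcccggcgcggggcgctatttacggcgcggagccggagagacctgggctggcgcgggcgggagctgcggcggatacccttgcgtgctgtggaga
BMP4: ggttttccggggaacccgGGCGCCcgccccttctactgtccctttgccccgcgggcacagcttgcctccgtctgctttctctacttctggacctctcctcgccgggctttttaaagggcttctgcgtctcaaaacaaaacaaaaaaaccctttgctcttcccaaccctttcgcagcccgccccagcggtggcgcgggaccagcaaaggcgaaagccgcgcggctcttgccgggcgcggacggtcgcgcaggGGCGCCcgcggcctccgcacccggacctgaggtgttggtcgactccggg
The *BAMBI* window holds 3 matches to GGCGCC, at -209, -196 and -181 with the start base counted as 0. The printed *BMP4* window holds 2, and the windows of the other 2 *BMP4* start sites hold none. GGCGCC occurs in 19.2% of the 35116 promoter windows of the table, a share not matched for G and C content. The *BAMBI* window is 80.0% G or C, and the printed *BMP4* window 66.0%. No TCF/LEF word stands in either, and none in the windows of the other 2 *BMP4* start sites. One or more of those words occur in 13.8% of all windows.

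*TGFB1*, the ligand of the TGF-β branch, had 16.8 FPKM in untransfected cells and 12.4 FPKM with anti-*APC* siRNA. Its log2 ratio of -0.44 (counting interval -0.57 to -0.31) was short of 1.5-fold, and 11.8% of all genes had a lower one. The ratio of *BMP4* to *TGFB1* within a library was 4.07 without and 11.2 with anti-*APC* siRNA. *TGFB1* held its share of the summed *TGFB1*, *TGFB2* and *TGFB3* FPKM, at 91.4% and 91.3%.

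*TGFBR2* encodes the type II receptor that binds TGF-β and activates TGFBR1. It had 16.0 FPKM in untransfected cells and 16.4 FPKM with anti-*APC* siRNA, on 1916 and 1790 estimated reads. The log2 ratio was 0.03 (counting interval -0.06 to 0.13), a ratio between 0.959 and 1.09 by counting error. *TGFBR2* was the most abundant of the 5 type II receptor genes in both libraries, with 58.0% and 59.4% of their summed FPKM. The FPKM of a gene says nothing of the sequence of its transcripts. The stretch in which mismatch repair-deficient colon cancers often gain or lose bases is a run of adenines in the coding sequence, and it is printed here from the reference, not from these cells. It lies in exon 3 of the 7 exons of ENST00000295754.10, at chr3:30691847-30691906 of GRCh37 on the plus strand, and the capitals mark the run of 10 adenines, from base 30691872 to 30691881, in codons 125 to 128.
TGFBR2: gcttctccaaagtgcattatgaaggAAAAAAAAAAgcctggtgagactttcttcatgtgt

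*SMAD7* encodes the inhibitor that recruits ubiquitin ligases to the TGF-β receptor, and *SMAD6* the one that acts mainly on the BMP branch. *SMAD7* had 3.53 FPKM in untransfected cells and 3.43 FPKM with anti-*APC* siRNA, a log2 ratio of -0.04 (counting interval -0.28 to 0.20). It lay near the middle of all genes, 51.7% of which had a lower ratio. *SMAD6* was the lowest of the 9 genes, with 0.930 FPKM and 0.472 FPKM, or about 93 and 43 reads. Its log2 ratio was -0.98 (counting interval -1.54 to -0.45), on fewer reads than any other of the 9. It is not called, since its mean is under 1 FPKM. With 1 FPKM added to both values the log2 ratio was -0.39. Relative to *SMAD7*, *SMAD6* stood at 26.3% in untransfected cells and at 13.8% with anti-*APC* siRNA. The *SMAD6* promoter window is the only one of those listed for the 9 genes that holds the palindrome GTCTAGAC, at -12. It is present in 0.202% of all windows.

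*ID1* was the most abundant of the 9 genes in untransfected cells, at 141 FPKM, and fell to 65.8 FPKM with anti-*APC* siRNA. These values rest on about 3035 and 1293 reads. The log2 ratio was -1.10, which is 0.467 of the untransfected level (counting interval 0.437 to 0.498), and 118 of the 12063 genes had a lower one. Of the 995 genes with a mean of at least 100 FPKM, 1.81% were at least 2-fold lower. *ID3* fell from 34.9 to 21.8 FPKM (719 and 411 reads), a log2 ratio of -0.68 with a counting interval of -0.85 to -0.50 that reaches past the 1.5-fold limit. Of all genes, 4.61% had a lower ratio than *ID3*. *ID2* had 109 FPKM in untransfected cells and 84.8 FPKM with anti-*APC* siRNA, a log2 ratio of -0.36 (counting interval -0.43 to -0.28), which is short of 1.5-fold. All 3 ID genes were thus lower with anti-*APC* siRNA beyond counting error, in the order *ID1*, *ID3*, *ID2*. Their counting intervals did not overlap.

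The make-up of the ID group differed between the libraries. *ID1* accounted for 49.5% of the summed FPKM of *ID1* to *ID4* in untransfected cells and for 38.1% with anti-*APC* siRNA, while *ID2* went from 38.2% to 49.2% and *ID3* from 12.3% to 12.7%. *ID4* was near 0, at 0.0676 FPKM in untransfected cells and 0.0370 FPKM in the anti-*APC* library. The E protein genes *TCF3* and *TCF12*, whose products the ID proteins bind, had log2 ratios of 0.08 and 0.07, and *TCF4* was listed at 0 in both libraries. The summed FPKM of the ID genes was 4.16 times that of *TCF3* and *TCF12* in untransfected cells and 2.39 times with anti-*APC* siRNA. *BMP4* and *ID1* exchanged places: the ratio of *BMP4* to *ID1* was 0.486 without and 2.12 with anti-*APC* siRNA, a 4.36-fold difference that does not depend on the scaling of the libraries.

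The promoters of *ID1* and *ID3*, the 2 genes that fell, are given with the same marks. The *ID1* window is chr20:31605039-31605338 on the plus strand and the *ID3* window chr1:23559452-23559751 on the minus strand (RefSeq, GRCh38.p14).
ID1: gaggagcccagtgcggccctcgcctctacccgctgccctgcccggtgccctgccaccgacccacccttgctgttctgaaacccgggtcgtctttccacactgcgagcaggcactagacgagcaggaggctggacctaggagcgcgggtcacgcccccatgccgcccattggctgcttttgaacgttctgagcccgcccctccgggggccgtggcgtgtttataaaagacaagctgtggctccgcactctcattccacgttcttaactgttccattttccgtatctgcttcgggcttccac
ID3: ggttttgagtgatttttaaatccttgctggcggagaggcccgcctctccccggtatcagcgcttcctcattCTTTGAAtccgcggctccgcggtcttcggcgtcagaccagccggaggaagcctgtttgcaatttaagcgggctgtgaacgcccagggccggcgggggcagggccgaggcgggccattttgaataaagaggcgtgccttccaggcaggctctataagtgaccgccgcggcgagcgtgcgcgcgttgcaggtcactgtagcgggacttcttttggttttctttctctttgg
The *ID3* window holds 1 TCF/LEF word, TTCAAAG read on the opposite strand, at -179. It is the only match to these words in the listed windows of the 9 genes. The *ID1* window holds no match to any of the 3 kinds of element, nor does that of *ID2*. These are matches of letters, and no binding was measured here.

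**Figure D2:**
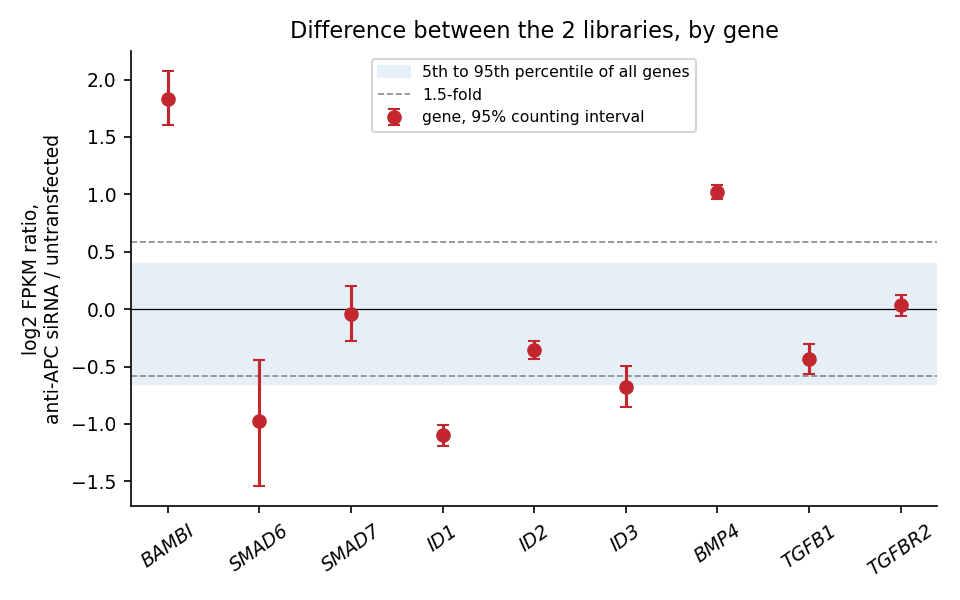
Log2 ratio of FPKM (anti-*APC* siRNA over untransfected) for each gene, with bars for the 95% counting interval, which leaves out variation between cultures. The blue band spans the 5th to 95th percentile of all genes with a mean of at least 1 FPKM (-0.65 to 0.39), and dashed lines mark 1.5-fold. The points of *BAMBI*, *BMP4*, *ID1*, *ID3* and *SMAD6* lie outside the band, but the intervals of *ID3* and *SMAD6* reach into it. *SMAD6*, with a mean of 0.701 FPKM, is not among the genes behind the band.

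The other genes of the pathway were taken from 12 lists by role, with 107 genes beyond the 9. Of these, 55 could be judged at a mean of at least 1 FPKM, and 17 were listed at 0 in both libraries. In the 55 genes, 4 were called higher and 4 lower, which is 7.27% each way against 2.56% and 6.61% of all genes. Their median log2 ratio was -0.06 against -0.05. The lists were chosen with earlier results of these data known, so nothing is read from these shares or from those of single lists below. Where a pair of levels is given for these genes, the anti-*APC* library comes first unless the sentence runs from one to the other.

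No receptor, co-receptor, receptor SMAD or common SMAD gene with a mean of at least 1 FPKM passed 1.5-fold, though several of their ratios were below those of most genes. None of the 4 type I receptor genes with enough expression was called, and their log2 ratios ranged from -0.18 to 0.03. *ACVR1B* had 11.1 and 10.8 FPKM, and *BMPR1A*, a main BMP receptor, 10.4 and 10.6 FPKM. Of the type II receptors, *ACVR2B* had 5.40 and 4.61 FPKM. Of the co-receptors, none of 4 was called and their median log2 ratio was -0.44. *RGMA* had a log2 ratio of -0.56 (1.05 and 1.54 FPKM), *TGFBR3* of -0.48 (1.88 and 2.62 FPKM), *NEO1* of -0.41 and *RGMB* of 0.07. All 5 receptor and common SMAD genes that could be judged had ratios below 0 and none was called. Their median log2 ratio was -0.08, and that of all genes was also below 0, at -0.05. *SMAD3*, the TGF-β effector and the most abundant of them, had 28.4 FPKM with and 41.4 FPKM without anti-*APC* siRNA (log2 ratio -0.54, with 7.79% of all genes lower), and *SMAD5*, a BMP effector, had 22.5 and 23.0 FPKM (-0.04). In the list of TGF-β and activin ligands, *GDF15* had 13.2 and 18.8 FPKM (log2 ratio -0.51), which was not called.

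Secreted antagonists, which trap BMPs or activins outside the cell, held 4 of the 8 called genes. Of the 5 that could be judged, 1 was higher and 3 were lower, beside 2.56% and 6.61% of all genes. *FSTL3*, which binds activin, fell from 10.4 to 5.67 FPKM (log2 ratio -0.88, counting interval -1.07 to -0.68). *FSTL1* fell from 9.66 to 5.58 FPKM (-0.79). The microRNA gene *MIR198* lies in the same locus. *CHRD*, which encodes the BMP antagonist chordin, fell from 1.39 to 0.836 FPKM (-0.73) on 128 and 70 reads. *NBL1*, which encodes a BMP antagonist of the DAN family, rose from 5.13 to 18.2 FPKM (1.83). The table places *NBL1* with 2 more genes, and its read-through partner *C1orf15-NBL1* had 26.4 and 36.3 FPKM. Over the 3 genes the sum was 50.3 and 50.2 FPKM, so the locus as a whole did not share the difference of *NBL1*. *TWSG1*, another BMP-binding protein gene, had 27.0 and 23.5 FPKM (0.20) and was not called.

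In the list named for TGF-β latency and activation, *LTBP3* fell from 24.6 to 15.7 FPKM (log2 ratio -0.64, counting interval -0.72 to -0.56). *LTBP2* rose from 0.845 to 1.36 FPKM (0.68), with a mean just past the limit of 1 FPKM. *ITGAV*, an integrin subunit that takes part in activation, had 17.6 and 19.7 FPKM. Of 12 intracellular inhibitor genes that could be judged, *BAMBI* alone was called, as higher, where the share of all genes is 2.56%. The most abundant, *FKBP1A* (206 and 186 FPKM) and *STRAP* (197 and 165 FPKM), had log2 ratios of 0.15 and 0.25.

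The 2 lists of target genes gave mixed directions. Of 10 TGF-β target genes, 2 were called, both higher, where the share of all genes is 2.56%. *CDKN2B*, which encodes the cell cycle inhibitor p15, rose from 2.36 to 3.98 FPKM (log2 ratio 0.75, counting interval 0.51 to 0.99), and *LTBP2* is given above. *CDKN2B* shares its locus with its antisense gene, *CDKN2B-AS1*, whose 0.321 and 0.233 FPKM leave the log2 ratio of the sum at 0.73. *CDKN1A*, which encodes p21, had 65.1 and 67.9 FPKM (-0.06), and *JUNB* had 19.4 and 26.2 FPKM (-0.44). Of 8 BMP target genes, 2 were higher (*BAMBI* and *MSX1*) and 2 lower (*ID1* and *ID3*), where the shares of all genes are 2.56% and 6.61%. Without the feedback genes, 3 of this list could be judged, and *MSX1* alone was called. *MSX1*, a homeobox gene, rose from 31.3 to 94.7 FPKM (1.60). *SMAD7*, with its log2 ratio of -0.04, stands in both lists.

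**Figure D3:**
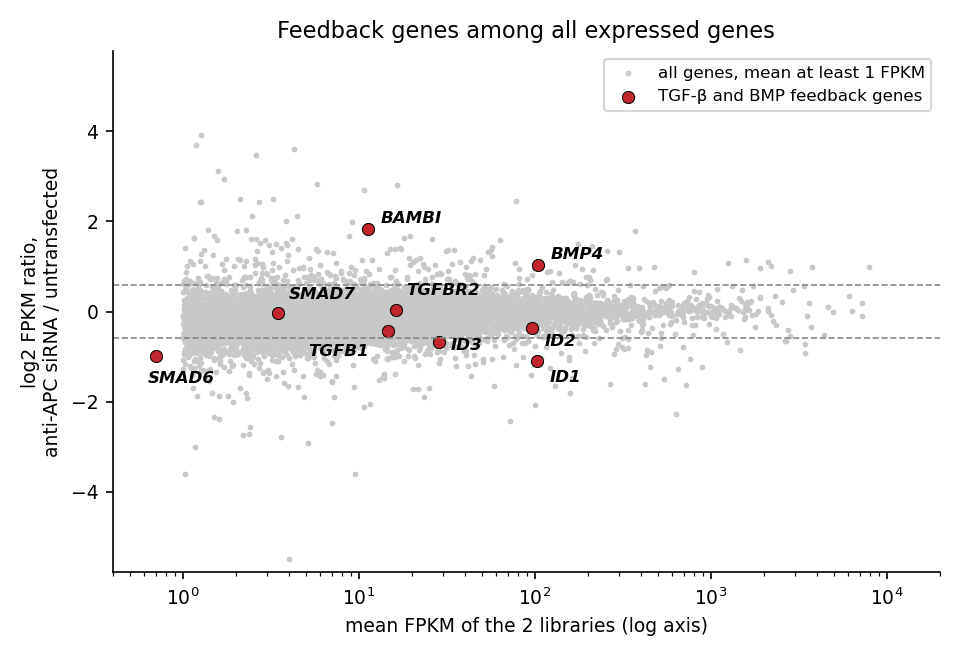
Log2 ratio of FPKM against mean FPKM of the 2 libraries (log axis), for all 12063 genes with a mean of at least 1 FPKM (grey) and the 9 feedback genes (red, *SMAD6* left of the limit). Dashed lines mark 1.5-fold; *BAMBI* and *BMP4* stand above, and *ID1* below, most genes of their level.

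**Figure D4:**
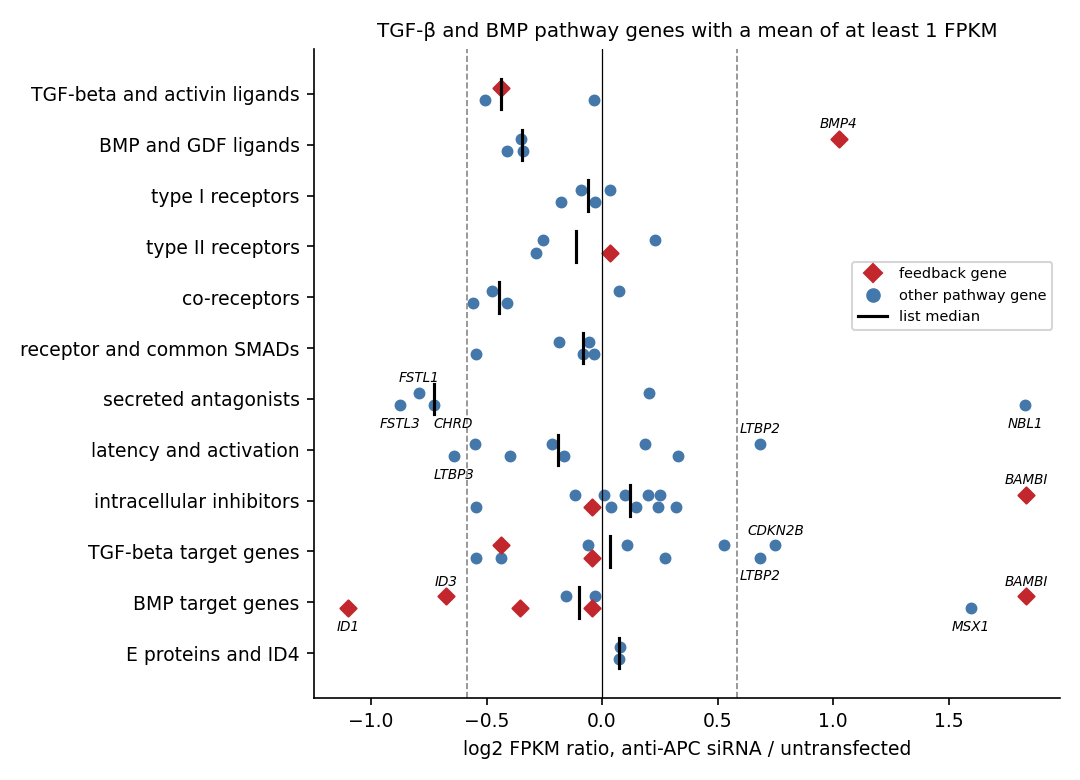
Log2 ratio of FPKM (anti-*APC* siRNA over untransfected) for pathway genes with a mean of at least 1 FPKM, by list, with a black bar at each list's median and dashed lines at 1.5-fold. Red diamonds are the feedback genes and blue circles the others; genes past 1.5-fold are named, and a gene in several lists is drawn in each.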

How the data were processed

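RNA of HCT-116 cells was measured in 1 library per condition. Per the labels, single-read TruSeq libraries were made, the build was hg19, and Cufflinks and Cuffdiff were used; versions, aligner and annotation are not given in the sources used here. The values the authors deposited are FPKM per gene for the anti-*APC* siRNA and the untransfected library. The same table holds the authors' own comparison (natural log ratio, statistic, *p*, *q* and a call), which was not used. Their status column was read: 269 genes have a failed estimate and stand at 0 in each library, none of them among the 9 genes. It marks 350 more as low data (LOWDATA), among them *RGMA* and *PMEPA1*. All 9 genes are marked OK.

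Log2 ratios were formed from FPKM gene by gene, with no pseudocount. No test was possible with 1 library per condition. Another 134 genes with a mean of at least 1 FPKM had 1 library at 0 and no ratio. Depth was estimated from FPKM alone. In 349 of 2639 genes alone at their locus and below 0.5 FPKM, the log2 ratio was 0.13 (within 0.002), the worth of 1 read in one library over the other. In 31 intronless genes with 1 read, FPKM followed the inverse of transcript length minus 204 bases, which gave the depth. Of 92 intronless genes with 1 to 10 reads, 78 came within 0.1 of a whole read. Reads of named genes use the canonical GENCODE 44 transcript on GRCh37 and are approximate where a gene has several transcripts. The steps were tested on simulated data. Other fold limits, minimum levels, pseudocounts and scalings were tried as alternatives.

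Members and lists were chosen with earlier results of these data known. Named genes are the 9 members, *APC*, pathway genes past 1.5-fold, the 2 most abundant of each list, and genes at shared loci. The sum over 1 shared locus is not reported here. Genes below 1 FPKM named among the other observations, *RGMA*, *TGFBR3*, *ID4*, *TCF4* and the cell type markers were named beside this rule. Symbols matched RefSeq promoters for all 9 members. Python 3.11.15, numpy 2.4.6, pandas 2.3.3, scipy 1.17.1 and matplotlib 3.10.9 were used.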

Additional observations from a re-analysis of the deposited data

How the results depend on the processing

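No paired analysis was possible because there is 1 library per condition. For the same reason no library could be left out, and the comparison with scrambled siRNA was not run. Of the 8 genes with a mean of at least 1 FPKM, 4 were past 1.5-fold, and this count stayed within 1.5 times under all alternatives run. At 2-fold, 1 of the 8 was lower (*ID1*), beside 1.37% of all genes. At the lower fold limit tried, between 1 and 1.5, 4 of the 8 were lower, beside 18.4% of all genes. These were *ID2* and *TGFB1* with *ID1* and *ID3*. With a minimum of 0.5 FPKM or none, *SMAD6* joined those called lower, making 3 of 9, beside 7.71% and 12.8% of all genes. *SMAD7* and *TGFBR2* changed sign within counting error: *SMAD7* had 0.01 after the median of all genes was subtracted, and *TGFBR2* had -0.03 after FPKM was rescaled to a common sum, in which 1 microRNA row holds 50.3% and 49.2%. The other 7 genes kept their direction under all 5 alternatives for single genes, and summing over the locus changed nothing since each is alone there. With a pseudocount of 1 FPKM, *SMAD6* moved to -0.39.

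Counts of the other pathway genes moved more. At 2-fold, 2 of 55 were higher and 0 lower (2 in all), and at the lower fold limit 16 of 55 were lower (22 in all). With a minimum of 5 FPKM, 2 of 39 were higher (5 in all), and with no minimum 16 of 82 were lower (22 in all). With a pseudocount of 1 FPKM, 2 of 55 were higher (5 in all). Among genes alone at their locus, 2 of 41 were higher and 2 lower (4 in all). Over all genes, 309 were higher and 797 lower at 1.5-fold. The counts were 115 and 165 (280) at 2-fold, 865 and 2219 (3084) at the lower fold limit, 186 and 347 (533) with a minimum of 5 FPKM, and 1084 and 2078 (3162) with no minimum. With a pseudocount of 1 FPKM 526 were lower, and among genes alone at their locus 182 were higher (735 in all). As shares of all genes, the totals were 2.32% at 2-fold and 25.6% at the lower fold limit. They were 5.79% with a minimum of 5 FPKM, 19.4% with none and 6.63% with a pseudocount of 1 FPKM. Of genes alone at their locus it was 8.02%. Thresholds and minimums change these counts by construction. Depth limits *SMAD6* most, at 43 reads in the anti-*APC* library.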

Other observations

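Some pathway genes had a mean below 1 FPKM, so none of them was called, and their values rest on few reads. *BMP2*, a BMP ligand gene, had 0.753 FPKM in the anti-*APC* library and 0.504 FPKM in the untransfected one (64 and 46 estimated reads, counting interval of the log2 ratio 0.04 to 1.19), the order kept below. *BMP6* had 0.436 and 1.08 FPKM (39 and 107 reads, -1.89 to -0.78), at a locus the table gives to 8 genes. *TGFB3* had 0.466 and 0.838 FPKM (38 and 75 reads, -1.45 to -0.27). *HEY1*, a transcription factor gene reported as a target of BMP and Notch signaling, had 0.378 and 0.121 FPKM (19 and 7 reads, 0.26 to 3.07). *PMEPA1*, a TGF-β-induced inhibitor of that pathway, had 0.0808 and 0.259 FPKM (10 and 34 reads, -2.82 to -0.58). The genes from *BMP2* to *PMEPA1* named here all have counting intervals that leave out 0, which is not so for low pathway genes in general. *TGFB2* had 0.722 and 0.752 FPKM (103 and 118 reads, -0.46 to 0.33). *SMAD9* had 0.819 and 0.837 FPKM (111 and 124 reads, -0.41 to 0.35). *NOG*, *GREM1* and *CHRDL1*, which encode BMP antagonists, were at or near 0: *NOG* had 0.0235 and 0.0214 FPKM, 1 read in each library, and *GREM1* and *CHRDL1* were listed at 0 in each library.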
